A study of Homo sapiens with 5 samples.

Results

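The genes described here are 10 members of the BCL2 family, the proteins that decide whether a cell keeps its mitochondria intact or dies by apoptosis: PMAIP1, BBC3, BAD, BCL2L11, BID, BAX, BAK1, MCL1, BCL2L1 and BCL2. They were selected on ChIP-seq peaks of the transcription factors IRF3 and Smad3 in the same data, PMAIP1 because its IRF3 peak is listed with and without constitutively active Smad3, so their peaks are given as a description and no test was made on them. All 10 were found among the 20037 protein-coding RefSeq genes of chromosomes 1 to 22, X and Y, and a gene counted when a peak lay inside it or within 10 kb of it. Of the 19372 peaks of the series, 24 lay at these genes.

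BT549 is an established cell line from a basal-like breast cancer, and all cells carried a lentiviral vector, either for constitutively active Smad3 (caSmad3) or for the HA control. PolyI:C is an analogue of double-stranded RNA, and its transfection activates IRF3. The 5 groups had 1 library each. IRF3 was precipitated from caSmad3 cells and from HA cells, both transfected with polyI:C and given no TGF-beta. Smad3 was precipitated from caSmad3 cells transfected with polyI:C and given no TGF-beta, from HA cells transfected with polyI:C and given TGF-beta (1 ng/ml for 1.5 h), and from mock-transfected HA cells given the same TGF-beta. Against HA cells given TGF-beta, caSmad3 cells therefore differ in the vector and in TGF-beta at once, and the effects of the 2 on Smad3 cannot be told apart. They differ from the mock-transfected HA cells in polyI:C as well.

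The lists held 8067 IRF3 peaks in caSmad3 cells and 4125 in HA cells. Smad3 had 6041 peaks in caSmad3 cells, and in HA cells 786 after polyI:C and 353 after mock transfection. Each peak is a position with no height, and read depth is unknown, so a list says where a factor was called and not how much of it was bound. Groups of 1 library give no replicate error, and differences between conditions were not tested. Median peak widths were 215 and 185 bases for IRF3 in caSmad3 and HA cells, and 178, 154.5 and 164 bases for Smad3 in the order above.

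The family has 3 arms. The effectors BAX and BAK1 form pores in the outer mitochondrial membrane and release cytochrome c. The pro-survival proteins BCL2, BCL-XL (the product of BCL2L1) and MCL1 hold the effectors in check. The BH3-only proteins NOXA (PMAIP1), PUMA (BBC3), BAD, BIM (BCL2L11) and BID, which sense stress, block the pro-survival proteins or activate the effectors, and NOXA binds MCL1 in particular. IRF3 is known to induce PMAIP1 after viral RNA is sensed, and TGF-beta is known to act on several of these genes in other cells.

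The promoter that carries the peak for which PMAIP1 was chosen, and the neighbouring promoter that carries the peaks counted for BAX, are shown first, as RefSeq sequence of GRCh38.p14, read 5′ to 3′ on the strand of the gene. Each is the 250 bases before the annotated start, and capitals mark the bases inside the IRF3 peaks of both caSmad3 and HA cells, 141 bases at PMAIP1 and 138 at FTL. The PMAIP1 stretch is chr18:59899746-59899995 on the plus strand, and the FTL stretch is chr19:48965059-48965308 on the plus strand.
PMAIP1: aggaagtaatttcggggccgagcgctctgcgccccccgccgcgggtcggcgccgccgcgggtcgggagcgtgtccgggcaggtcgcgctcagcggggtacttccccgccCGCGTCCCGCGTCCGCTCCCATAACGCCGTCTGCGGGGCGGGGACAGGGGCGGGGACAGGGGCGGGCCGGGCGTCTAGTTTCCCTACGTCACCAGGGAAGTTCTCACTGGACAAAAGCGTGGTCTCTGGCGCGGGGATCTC
FTL: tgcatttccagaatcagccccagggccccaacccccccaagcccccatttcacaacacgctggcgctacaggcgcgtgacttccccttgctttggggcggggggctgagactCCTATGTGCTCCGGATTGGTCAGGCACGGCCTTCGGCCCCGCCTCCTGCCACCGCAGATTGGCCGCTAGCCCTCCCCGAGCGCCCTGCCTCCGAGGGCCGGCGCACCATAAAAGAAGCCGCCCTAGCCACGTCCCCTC

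IRF3 peaks lay at 6 of the 10 genes in caSmad3 cells (PMAIP1, BBC3, BAD, BAX, MCL1 and BCL2L1) and at 3 in HA cells (PMAIP1, BAX and MCL1). Among all protein-coding genes the shares were 40.5% in caSmad3 cells and 23.6% in HA cells. The 3 genes listed in HA cells were all listed in caSmad3 cells too, as were 22.0% of all protein-coding genes, and at each of the 3 an IRF3 peak of caSmad3 cells overlapped a peak of HA cells by at least 1 base (21.2% of all protein-coding genes). BBC3, BAD and BCL2L1 had IRF3 peaks in caSmad3 cells and not in HA cells, a state found for 18.5% of all protein-coding genes. Since these genes were selected on such peaks, nothing is read from the difference between their counts and those shares.

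Smad3 peaks lay at 4 of the 10 genes in caSmad3 cells (BAD, BAX, MCL1 and BCL2L1), at 1 in HA cells with polyI:C plus TGF-beta (MCL1) and at 0 in mock-transfected HA cells with TGF-beta. The shares of all protein-coding genes were 19.9%, 2.53% and 0.918% in that order. The 4 genes with a Smad3 peak in caSmad3 cells all had an IRF3 peak in the same cells (14.8% of all protein-coding genes had both). At BAX, MCL1 and BCL2L1 the peaks of the 2 factors overlapped (11.5% of all protein-coding genes). BAK1, BCL2L11, BID and BCL2 had no peak in any library, as had 53.1% of all protein-coding genes. The count of peaks by gene and library shows MCL1 as the gene with the most peaks, 10 of the 24.

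**Figure D1:**
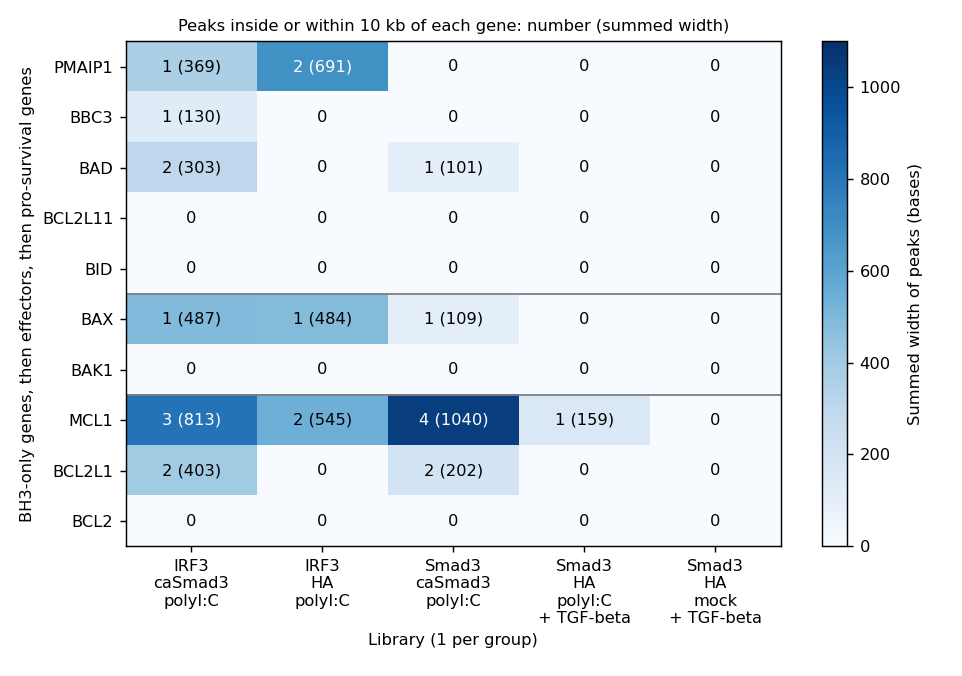
Number of peaks inside or within 10 kb of each BCL2 family gene (rows, grouped as BH3-only genes, effectors and pro-survival genes) in each of the 5 libraries (columns), with their summed width in bases in brackets and as colour. MCL1 has peaks in 4 libraries, PMAIP1 in both IRF3 libraries and in no Smad3 library, and BCL2L11, BID, BAK1 and BCL2 in none.

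Of the 5 BH3-only genes, PMAIP1 was the only gene listed in both IRF3 libraries. PMAIP1 encodes NOXA and spans 4310 bases of chromosome 18 on the plus strand (59899996 to 59904305, hg38). Its IRF3 peak in caSmad3 cells was 369 bases wide (59899853 to 59900221) and that in HA cells 400 bases wide (59899855 to 59900254). Both cover the annotated start of the gene, with centres 41 bases downstream of it in caSmad3 cells and 58.5 bases downstream in HA cells. They have 367 bases in common, which is 99.5% of the caSmad3 peak and 91.8% of the HA peak. In width the caSmad3 peak equalled or exceeded 79.0% of the IRF3 peaks of caSmad3 cells, and the HA peak 87.9% of those of HA cells. A peak over an annotated start was found for 20.9% of 15843 protein-coding genes with a start in the table in caSmad3 cells, and for 10.1% in HA cells.

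PMAIP1 had a further IRF3 peak in HA cells, 291 bases wide, 395 bases beyond the upper end of the gene (59904700 to 59904990), past the annotated end of transcription. It had no counterpart in caSmad3 cells. Another HA peak of 126 bases lay outside the window, 13970 bases below the gene (59885901 to 59886026). No Smad3 peak was listed near PMAIP1: the nearest lay 149500 bases away in caSmad3 cells, 14575080 bases away in HA cells after polyI:C and 1050968 bases away after mock transfection.

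The pattern of PMAIP1, an IRF3 peak in both libraries and no Smad3 peak in any, was shared by 2281 other protein-coding genes. By the summed width of peaks in each library, the most similar of these was RIPK1, a kinase of death receptor signalling, with 365 bases in caSmad3 cells and 660 in HA cells, against 369 and 691 for PMAIP1. DYNC2I1 followed with 399 bases in caSmad3 cells and 667 in HA cells, and FNDC3A with 504 and 721. Likeness here is the difference in summed width added up over the 5 libraries, and it does not require peaks at like positions. At RIPK1 the HA peaks of 261 and 300 bases lay at or near annotated starts, and none of its 3 HA peaks overlapped any of its 3 caSmad3 peaks.

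BBC3 encodes PUMA, a potent BH3-only protein. It spans 12037 bases of chromosome 19 (47220824 to 47232860, minus strand). It had 1 IRF3 peak of 130 bases in caSmad3 cells (47226371 to 47226500), inside the gene, 6231.5 bases downstream of the annotated start by its centre. In HA cells the nearest IRF3 peak lay 40742 bases above the gene, at CCDC9, where IRF3 and Smad3 peaks of caSmad3 cells were listed as well. The BBC3 peak is narrow for its list, where 22.4% of peaks were no wider.

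BAD encodes a BH3-only protein controlled by survival-factor kinases, and lies on the minus strand of chromosome 11 (64269828 to 64284704). In caSmad3 cells it had IRF3 peaks of 118 bases (64269774 to 64269891) and 185 bases (64270171 to 64270355) and a Smad3 peak of 101 bases (64270070 to 64270170). All 3 lay at the lower end of the gene, where its transcripts end, and 14402 to 14832.5 bases downstream of its nearest annotated start. They lay 176 to 640 bases from the first annotated start of GPR137 (64270531), a neighbour on the plus strand. The Smad3 peak ends 1 base before the wider IRF3 peak begins, so the peaks of the 2 factors sit side by side without overlap. No HA library had a peak within 10 kb of BAD, and the nearest HA IRF3 peak was 28960 bases away.

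BCL2L11, which encodes BIM, and BID, the link from death receptors to mitochondria, had no peak within 50 kb in any of the 5 libraries. The nearest peak to BCL2L11 (chromosome 2, 111120914 to 111168445) lay 442568 bases below it, in the IRF3 list of caSmad3 cells, and IRF3 in HA cells and Smad3 in caSmad3 cells had peaks at the same place. The nearest to BID (chromosome 22, 17734138 to 17774665) lay 95189 bases below it and inside BCL2L13, a more distant relative of the same family.

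The effector BAX spans 6924 bases of chromosome 19 on the plus strand (48954875 to 48961798). Its IRF3 peaks were 487 bases wide in caSmad3 cells (48965126 to 48965612) and 484 bases wide in HA cells (48965171 to 48965654), with 442 bases in common. A Smad3 peak of 109 bases in caSmad3 cells (48965230 to 48965338) lay wholly inside both. These peaks lie 3328 to 3432 bases above the upper end of BAX and cover the annotated start of FTL, the gene for ferritin light chain (48965309), whose promoter is printed above. The BAX start, more than 10 kb away, had no peak, and when each peak was given to the nearest coding gene alone BAX had none. BAX thus enters the count by the window and not by a peak on the gene itself.

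The other effector, BAK1 (chromosome 6, 33572552 to 33580276, minus strand), had no peak within 50 kb in any library. Its nearest was an IRF3 peak of caSmad3 cells 117900 bases below the gene, with an HA counterpart at 118138 bases. BAK1, BCL2L11 and BID made 3 of 10 genes without a peak within 50 kb in any library, a state of 35.4% of all protein-coding genes.

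**Figure D2:**
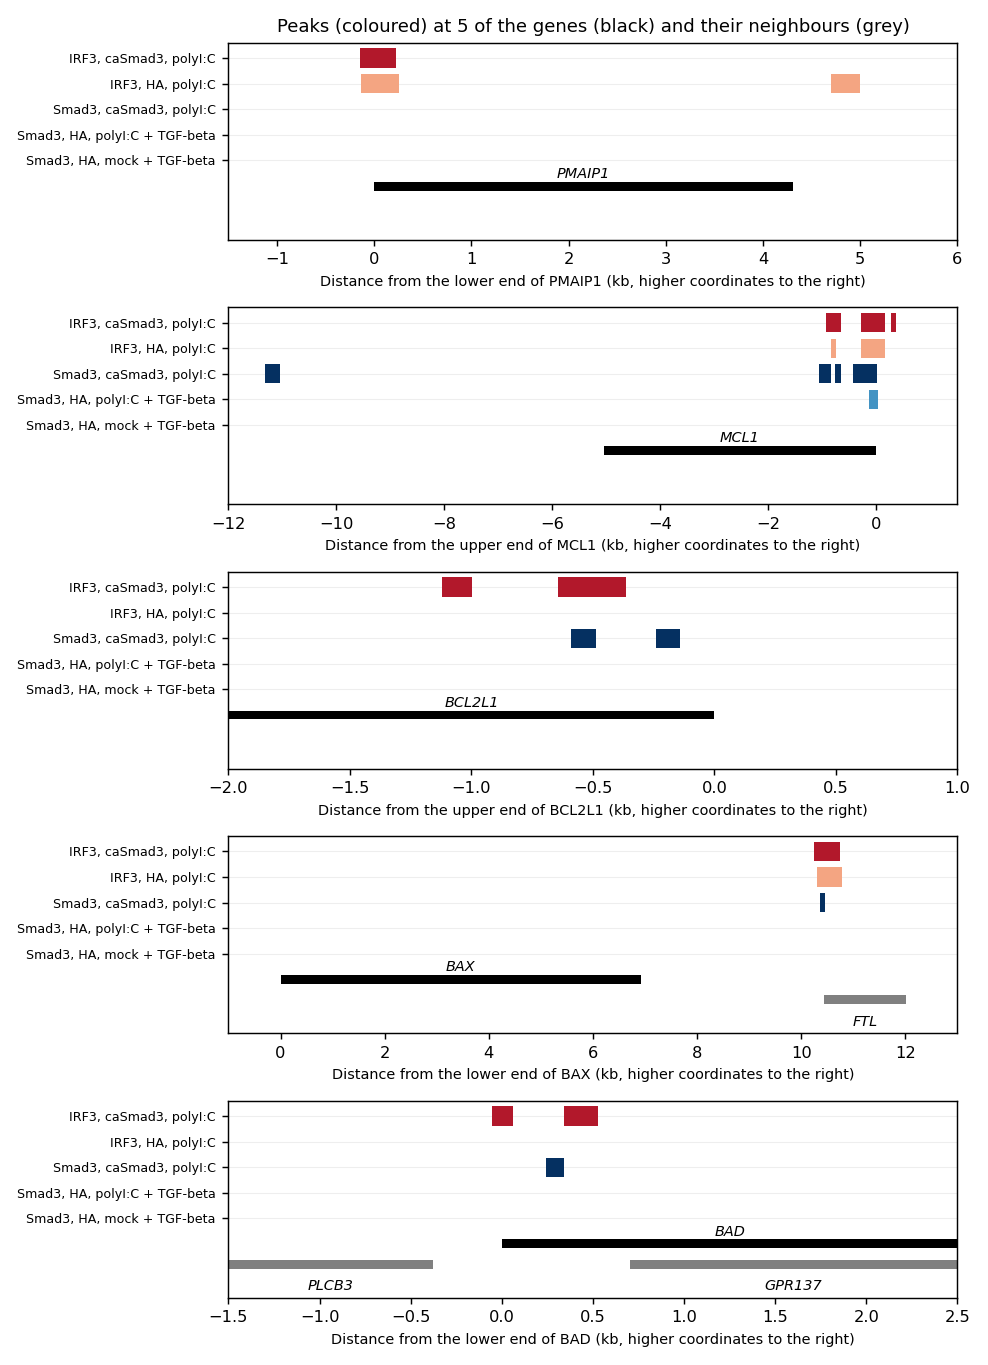
Peaks of the 5 libraries (coloured bars, 1 row per library) along PMAIP1, MCL1, BCL2L1, BAX and BAD (black bars) and their neighbours FTL, PLCB3 and GPR137 (grey bars), against distance in kb from the named gene end. PMAIP1 and MCL1 each have an IRF3 peak over a gene end in both IRF3 libraries, those counted for BAX lie at the lower end of FTL, and those of BCL2L1 and BAD are listed in caSmad3 cells alone.

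Among the pro-survival genes, MCL1 was listed in 4 of the 5 libraries. MCL1 encodes a short-lived protein that holds BAK1 and BAX in check and is bound by NOXA; the gene spans 5053 bases of chromosome 1 (150574558 to 150579610) and is known to be transcribed from its upper end. Over that end lay an IRF3 peak of 439 bases in caSmad3 cells (150579326 to 150579764) and of 440 bases in HA cells (150579326 to 150579765). They begin at the same base and have 439 bases in common. A Smad3 peak lay over the same end, with 441 bases in caSmad3 cells (150579180 to 150579620) and 159 bases in HA cells after polyI:C (150579476 to 150579634), and mock-transfected HA cells had none. The nearest Smad3 peak of mock-transfected cells was 686878 bases away. The stretch from 150579476 to 150579620, 145 bases, lies in the peaks of all 4 libraries.

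A second site lay inside MCL1, below its upper end. There the IRF3 peak was 275 bases wide in caSmad3 cells (150578674 to 150578948) and 105 bases in HA cells (150578760 to 150578864), and the HA peak lay wholly within the caSmad3 peak. Smad3 had peaks of 222 bases (150578554 to 150578775) and 106 bases (150578843 to 150578948) at this site in caSmad3 cells, both of which overlapped the IRF3 peaks. Further peaks of caSmad3 cells were an IRF3 peak of 99 bases, 265 bases above the gene, and a Smad3 peak of 271 bases, 5994 bases below it. The Smad3 peak below the gene is the outermost of the 24 peaks, and it lies over the non-coding ADAMTSL4-AS1. Just outside the window were IRF3 peaks of caSmad3 cells 12778 to 13218 bases below MCL1 and an HA peak at 13149 bases. The pattern of MCL1 over the 5 libraries was shared by 203 other protein-coding genes.

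BCL2L1 encodes BCL-XL and spans 59512 bases of chromosome 20 (31664452 to 31723963, minus strand). All of its peaks came from caSmad3 cells and lay close to its annotated starts. IRF3 peaks of 123 bases (31722841 to 31722963) and 280 bases (31723321 to 31723600) were listed, and the narrower covers a second annotated start. Smad3 peaks were 103 bases (31723371 to 31723473) and 99 bases (31723724 to 31723822), and the wider lies wholly within the 280-base IRF3 peak. In HA cells the nearest IRF3 peak lay 14965 bases above the gene, at the neighbour TPX2, where caSmad3 cells had an IRF3 peak of 771 bases and a Smad3 peak of 312 bases. The nearest Smad3 peaks of HA cells lay 56791 bases away with polyI:C and 56939 bases away after mock transfection. BCL2L1 and BAD had the same pattern over the 5 libraries, which each shared with 774 other protein-coding genes.

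BCL2, the founding pro-survival gene, is the longest of the 10 (196745 bases, chromosome 18, 63123346 to 63320090, minus strand) and had no peak inside it or within 10 kb. The nearest lay 47229 bases above the gene for IRF3 in caSmad3 cells and 47457 bases above it for IRF3 in HA cells, and a Smad3 peak of caSmad3 cells lay 47494 bases above it. These sit beside the start of KDSR, the next gene.

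Peaks at the genes ranged in width from 99 to 487 bases. The widest lay at promoters: 487 and 484 bases at the FTL start, 441 bases for Smad3 and 439 and 440 bases for IRF3 at MCL1, and 369 and 400 bases at PMAIP1. Each of these 7 peaks was at least as wide as 79.0% of its list. The peaks found in caSmad3 cells alone at BBC3, BAD and BCL2L1 were 118 to 280 bases for IRF3, at least as wide as 17.5% to 64.9% of the list. For Smad3 at BAD and BCL2L1 they were 99 to 103 bases, where 8.26% to 11.0% of the list was no wider. Smad3 peaks of caSmad3 cells at the FTL start (109 bases) and inside MCL1 (106 bases) were narrow too. Of that list, 15.3% and 13.1% were no wider than these. When the wider 50% of each list was kept, BBC3 and BAD lost their IRF3 peaks in caSmad3 cells, and MCL1 alone kept a Smad3 peak there.

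**Figure D3:**
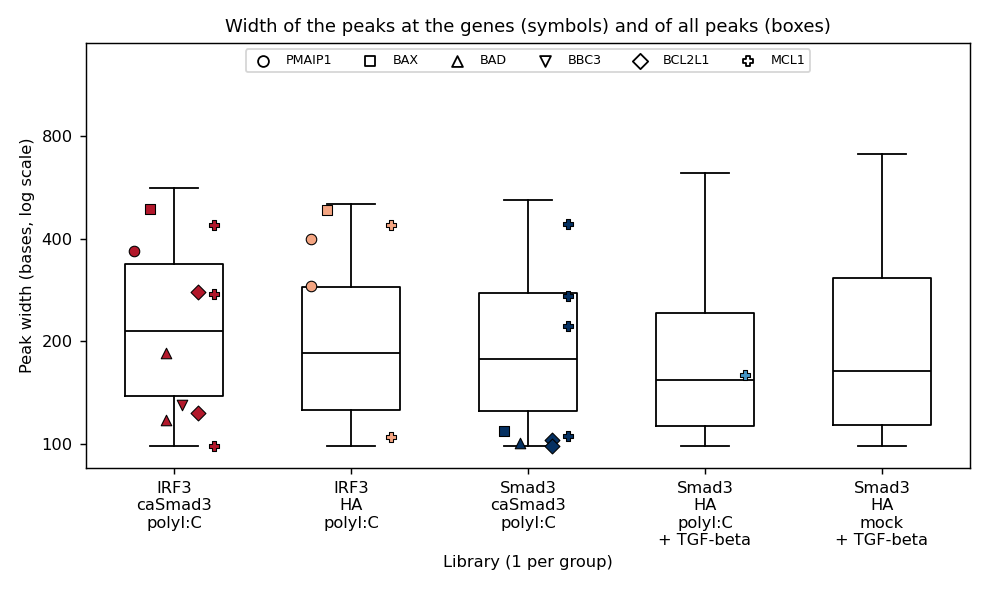
Width in bases (log scale) of each peak at the BCL2 family genes (symbols) beside all peaks of the same library (box from the lower to the upper quartile with the median, whiskers from the 5th to the 95th percentile). The IRF3 peaks over the PMAIP1 start, the FTL start near BAX and the upper end of MCL1 lie above the boxes. In caSmad3 cells the Smad3 peaks at BAD and BCL2L1, the 109-base peak near BAX and the 106-base peak at MCL1 lie below the box.

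Promoters of 9 of the 10 genes, each 300 bases from 250 before to 50 after a start, were searched on both strands for 5 motifs. These were an IRF pair (GAAANNGAA), a Smad element (CAGACA), the Smad palindrome (GTCTAGAC), an AP-1 element (TGANTCA) and an ETS element (CCGGAAG). Of all 22199 promoters of protein-coding genes, 7.09%, 15.2%, 0.216%, 6.15% and 12.8% held them in that order. PMAIP1 held none of the 5 and nor did FTL. For BBC3 and BCL2 only 1 annotated start each was searched (47232667 and 63319769). Both minus-strand genes extend above it, to 47232860 and 63320090.

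BBC3 was the only gene of the 9 whose searched promoter held the IRF pair, 3 times in overlapping copies 25 to 45 bases after the start, and it also held 1 AP-1 element. This stretch is shown because no peak of any library covered it. It lies on the minus strand at chr19:47232618-47232647, and capitals mark the 3 overlapping IRF pairs.
BBC3: aatgaGAAACTGAAAAAGAAACGGAAtgga
The Smad element occurred in promoters of BCL2L1 and BID, the ETS element in 1 of BCL2L1, and the Smad palindrome in none. The BCL2L1 promoter with these elements, at the upper start, was covered by no peak, while that at the second start was covered by an IRF3 peak in caSmad3 cells and held none of the 5 motifs.

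Other genes of the pathway were taken as 4 lists with 55 genes, of which 30 had an IRF3 peak within 10 kb in caSmad3 cells, 21 in HA cells and 20 in both (40.5%, 23.6% and 22.0% of all protein-coding genes). Smad3 peaks lay at 10 in caSmad3 cells (19.9% of all protein-coding genes) and at 0 in either HA library (2.53% after polyI:C and 0.918% after mock transfection). These lists were chosen with earlier results known, and no list was tested against other genes. Of the steps after the mitochondrion, IRF3 was listed at 13 of 15 genes in caSmad3 cells and at 9 of 15 in HA cells, beside 40.5% and 23.6% of all protein-coding genes. CYCS, the gene for cytochrome c, had a peak over its upper end of 345 bases in caSmad3 cells (25125106 to 25125450) and 261 bases in HA cells (25125168 to 25125428), both on chromosome 7. HTRA2, ENDOG, AIFM1, VDAC1, VDAC2, BIRC2 and its neighbour BIRC3 were among the others listed in both, the last pair through the same peak. APAF1 and CASP9, which build the apoptosome that cytochrome c triggers, DIABLO and XIAP had an IRF3 peak in caSmad3 cells and not in HA cells. Over all protein-coding genes, 18.5% were in that state. Smad3 peaks of caSmad3 cells were listed within 10 kb of ENDOG and AIFM1 alone, and none lay on either gene. The distances were 7109 bases from ENDOG, and 257 and 8331 bases from AIFM1. Some IRF3 peaks also lay outside the gene, such as the HA peak 3170 bases from VDAC1 and the caSmad3 peak 1935 bases from CASP9.

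Among 13 other BCL2 family genes, 4 had an IRF3 peak in caSmad3 cells (BCL2L2, BCL2L12, BCL2L13 and BNIP3L) and 3 in HA cells, the same without BCL2L2, beside 40.5% and 23.6% of all protein-coding genes. Smad3 had peaks in caSmad3 cells at these 4, overlapping IRF3 peaks at each by at least 1 base, and at BCL2A1 (over all protein-coding genes, 19.9% had such a Smad3 peak and 11.5% an overlap). At BNIP3L only the peak edges met, as the Smad3 peak ends at 26382998 and the IRF3 peak begins at 26382997. At BCL2L12 the overlap lay outside the gene, with the Smad3 peak 3256 bases from it. BCL2L2, which encodes the pro-survival protein BCL-W, had IRF3 peaks of 178, 285 and 204 bases in caSmad3 cells, the last of them over the lower gene end. BIK, BMF and HRK, which encode BH3-only proteins, were among the genes of that list with no peak in any library. The share of all protein-coding genes without a peak in any library was 53.1%.

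Of 15 regulators, IRF3 was listed at 9 in caSmad3 cells and at 7 in HA cells, beside 40.5% and 23.6% of all protein-coding genes. MDM2, which encodes a ubiquitin ligase, had an IRF3 peak over a gene end of 136 bases in caSmad3 cells and 222 bases in HA cells. DDIT3, which encodes the stress factor CHOP, had IRF3 peaks of 410 bases in caSmad3 cells and 429 bases in HA cells and a Smad3 peak of 240 bases in caSmad3 cells. HUWE1, a ubiquitin ligase for MCL1, and USP9X, which removes ubiquitin from MCL1, had IRF3 peaks in caSmad3 cells and not in HA cells. That state was found for 18.5% of all protein-coding genes. FBXW7, also in this list, had overlapping IRF3 peaks over a gene end, 244 bases in caSmad3 cells and 206 bases in HA cells. Death receptor and necroptosis genes had 4 of 12 in caSmad3 cells (TRADD, FADD, RIPK1 and MLKL) and 2 in HA cells (TNFRSF1A and RIPK1), beside 40.5% and 23.6% of all protein-coding genes, and 0 for Smad3 in any library. Overlapping IRF3 peaks of both cells were found at 0 of these 12 genes and at 21.2% of all protein-coding genes. The peak at MLKL was 232 bases, 4959 bases from the gene, and that at TNFRSF1A 207 bases, inside it.

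**Figure D4:**
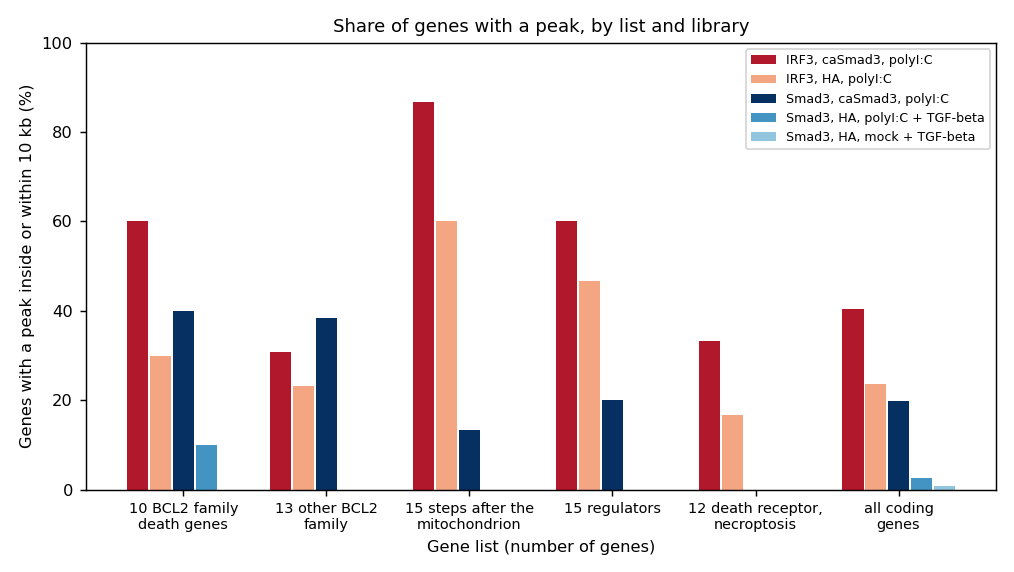
Share of genes with a peak inside or within 10 kb (percent) for the 10 BCL2 family death genes, 4 further lists and all protein-coding genes, with 1 bar per library. For IRF3 the bars of the steps after the mitochondrion (13 of 15 in caSmad3 cells, 9 of 15 in HA cells) are the tallest, and MCL1 after polyI:C is the only gene of the 5 lists with a Smad3 peak in HA cells.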

How the data were processed

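Binding of IRF3 and Smad3 was measured by ChIP-seq in 5 libraries of BT549 cells, 1 per group. Bowtie2 2.2.2.6, MACS2 2.1.0 and hg38 are named in the submitters' processing notes, while thresholds, input control and duplicate handling were not given in the sources used here. For each sample the authors deposited 1 list of peaks, holding the start and end of each peak in bases and no other measured value.

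Starts were turned to 1-based positions. Genes, starts and promoter sequences came from RefSeq tables of GRCh38.p14, with hg38 coordinates; 9 of the 10 genes had a promoter entry. Python 3.11.15 and pandas 2.3.3 were used. In a check on simulated data, 200 of 200 planted peaks were assigned to their gene. Peaks shared by libraries overlap by at least 1 base. Alternatives were windows of 1 kb and 50 kb, gene ends only, the nearest gene only, wider or non-minimal peaks, and stricter or looser overlap. The genes, the lists and the rule for the genes named (all 10, and list genes by widest unshared IRF3 peak; others were named after their values were seen) were chosen with earlier results of these data known. Some genes of the lists are counted but not reported here by name.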

Additional observations from a re-analysis of the deposited data

How the results depend on the processing

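Of 40 recounts under other settings, 36 stayed within 1.5 times the reported count. The 4 others were these. With a 50 kb window the genes with an IRF3 peak in HA cells numbered 7 in place of 3, as did those with a peak in both IRF3 libraries, since BAD, BBC3, BCL2 and BCL2L1 came in through peaks at neighbouring genes. In the wider 50% of peaks 1 gene in place of 4 was left for Smad3 in caSmad3 cells, and with overlap over 50% of both peaks 1 gene in place of 3 had overlapping Smad3 and IRF3 peaks there, in each case MCL1. The 36 include the recounts for Smad3 in mock-transfected HA cells, which were 0 under every setting and could hardly move. They also include counts that lost genes. With a 1 kb window or the nearest gene only, BAX dropped out. That left 2 genes in place of 3 for IRF3 in HA cells, and likewise for both IRF3 libraries. With the wider 50% of peaks, 4 genes in place of 6 had an IRF3 peak in caSmad3 cells. No paired analysis was possible because each group holds 1 library, and for the same reason no replicate could be left out. Read depth is unknown, so a gene without a peak may be bound below the threshold of peak calling.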
